A study of Mus musculus with 16 samples.

Results

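Type I interferon stimulated genes were measured in subcutaneous B16-OVA melanomas of mice treated with a MEK inhibitor, an agonist antibody against CD40, or both. A list of 44 such genes was chosen by name, and a gene was measured where a probe set of the array carried its symbol and no other. By this rule 42 of the 44 genes were measured, of 18193 genes in all. Isg15 shares its probe set with another gene in the annotation and gets no value here, and Ifi44 was not analysed here. Where a gene had several probe sets, the one with the highest mean over the 16 arrays stood for it. All 42 genes had a mean signal above the background level, a log2 signal of 4.94, which is the 95th percentile of 44 probe sets for olfactory receptors.

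B16-OVA is a mouse melanoma line engineered to make ovalbumin, and its cells were injected in PBS and Matrigel under the skin of C57BL/6-Ly5.1 mice aged 6 to 12 weeks. Each of the 4 groups had 4 tumors from 4 mice, taken at day 18, and each tumor was hybridised to 1 array. MEKi+CD40 mice received GDC-0623, an inhibitor of the kinase MEK, at 30 mg/kg each day for about 2 weeks, together with the anti-CD40 antibody, given on days 3, 5 and 7 of treatment and again on the day before the tumors were taken. CD40 mice received vehicle (MCT) and the anti-CD40 antibody on the same days, MEKi mice GDC-0623 and the control antibody, and control mice vehicle and the control antibody. All 4 groups thus share the injected line, the host strain, a daily dose of drug or vehicle and an antibody of some kind. RNA came from whole tumor, so fewer cells of a type and less RNA per cell cannot be told apart in any value below.

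Type I interferons are secreted proteins that cells make after sensing viral nucleic acid or their own misplaced DNA and RNA. They bind a receptor of the subunits Ifnar1 and Ifnar2, whose kinases Jak1 and Tyk2 activate Stat2. Stat2 and Irf9 are parts of a complex that binds the interferon-stimulated response element in the promoters of target genes. The targets sense RNA, block steps of viral growth, feed back on the pathway or modify other proteins, and interferon gamma, made mainly by T cells and NK cells, induces many of the same genes. In tumors the response can be made by malignant cells and by infiltrating leukocytes.

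Part of the promoters of these genes hold the core of the element that the complex recognises. The core GAAA, any 2 bases, GAAA was searched on both strands (TTTC, any 2 bases, TTTC on the other) in windows of 250 bases before to 50 bases after each gene's start, as given by RefSeq for the GRCm38.p6 build. Of the 31 measured genes of the list with a window, 11 (35.5%) held the core at least 1 time, against 1079 of 27025 genes overall (3.99%). At least 2 occurrences were found in 4 of the 31 (12.9%), against 0.266% of all genes. The 11 were Stat2, Ifih1, Ddx60, Eif2ak2, Oas3, Ifit1, Ifit3, Rsad2, Bst2, Trim30a and Tmem140. The core was not particular to this list. It was held by 3 of 10 genes of the interferon gamma axis with a window (30%) and 10 of 14 type I interferon genes (71.4%). Of genes that induce interferon 2 of 14 held it (14.3%), and of genes of the receptor and its signalling 1 of 9 (11.1%). A match is a description of the sequence and not a mapped site, and its absence says only that these letters were not in the window. Shown here are the stretch around 1 occurrence in the gene for the factor Stat2 itself and in 5 target genes described below, each 60 bases upstream of the start, read 5′ to 3′ along the gene's strand, with every core in capitals. Ifit1 shows 2 separate cores and Bst2 2 that overlap.
Stat2: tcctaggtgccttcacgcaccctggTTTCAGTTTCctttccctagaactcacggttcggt
Ifit1: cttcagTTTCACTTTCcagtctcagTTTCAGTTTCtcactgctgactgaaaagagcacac
Ifit3: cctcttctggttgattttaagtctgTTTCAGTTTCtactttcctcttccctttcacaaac
Rsad2: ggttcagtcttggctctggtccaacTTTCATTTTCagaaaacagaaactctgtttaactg
Bst2: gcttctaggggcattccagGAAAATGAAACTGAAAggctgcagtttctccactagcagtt
Tmem140: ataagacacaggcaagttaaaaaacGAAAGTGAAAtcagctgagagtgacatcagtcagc
The stretches lie at chr10:128270251-128270310 for Stat2, chr19:34640779-34640838 for Ifit1, chr19:34583382-34583441 for Ifit3, chr12:26456538-26456597 for Rsad2, chr8:71537562-71537621 for Bst2 and chr6:34863058-34863117 for Tmem140. Rsad2 and Bst2 lie on the minus strand and the others on the plus strand. The upstream core nearest the start began 63 bases before it in Tmem140, 85 in Ifit1, 120 in Rsad2, 122 in Ifit3, 124 in Bst2 and 222 in Stat2.

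Tumors of 1 group differed from each other in ways that bear on every comparison. Skeletal muscle genes, 12 in number, averaged a log2 signal of 11.96 in MEKi+CD40 tumor 1, 9.18 in MEKi+CD40 tumor 3 and 7.88 in CD40 tumor 3, against 4.77 to 5.70 in the other tumors. In MEKi+CD40 tumor 1 the 3′ probe set of Gapdh exceeded the 5′ one by 0.38, and that of Actb by 0.91, while elsewhere these gaps reached no more than 0.08 and 0.44. Fibroblast genes (8 of 8 measured) averaged 12.03, 10.43, 10.76 and 11.05 in MEKi+CD40 tumors 1 and 3, CD40 tumor 3 and MEKi tumor 3, against 7.47 to 8.72 in the others. The melanocyte markers (8 of 8 measured) averaged 13.45 to 13.76 in every tumor. With 4 arrays a group, the median SE over probe sets was 0.103 to 0.119, depending on the pair of groups.

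The 42 genes shared an order of groups. In 29 of them the group means stood in the order CD40, MEKi+CD40, control and MEKi from high to low, and in 10 the MEKi+CD40 mean was the highest, followed by CD40, control and MEKi. The 10 were Znfx1, Adar, Ifit1, Ifit3, Mx2, Rsad2, Cmpk2, Samd9l, Usp18 and Tmem140. These orders are those of the probe set of highest mean. Dimmer probe sets of Adar, Cmpk2 (-0.72) and Rsad2 (-0.19) had a lower mean in MEKi+CD40 than in CD40 tumors. Dimmer probe sets of Rtp4, Xaf1 and Tor3a had a higher mean in MEKi+CD40 tumors, against the order of their brightest. In Nmi and Eif2ak2 the MEKi+CD40 mean lay below that of controls, and Isg20, an exonuclease that degrades RNA, was the single gene with its lowest mean in controls. The mean over the 42 genes was 9.24 ± 0.68 in MEKi+CD40 tumors, 9.54 ± 0.45 in CD40 tumors, 7.39 ± 0.37 in MEKi tumors and 8.59 ± 0.59 in controls (log2 signal, SD, n = 4 tumors each). The neighbours MEKi+CD40 and CD40 did not differ beyond this spread, and control tumors overlapped with MEKi+CD40 and CD40 tumors but not with MEKi tumors.

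**Figure D1:**
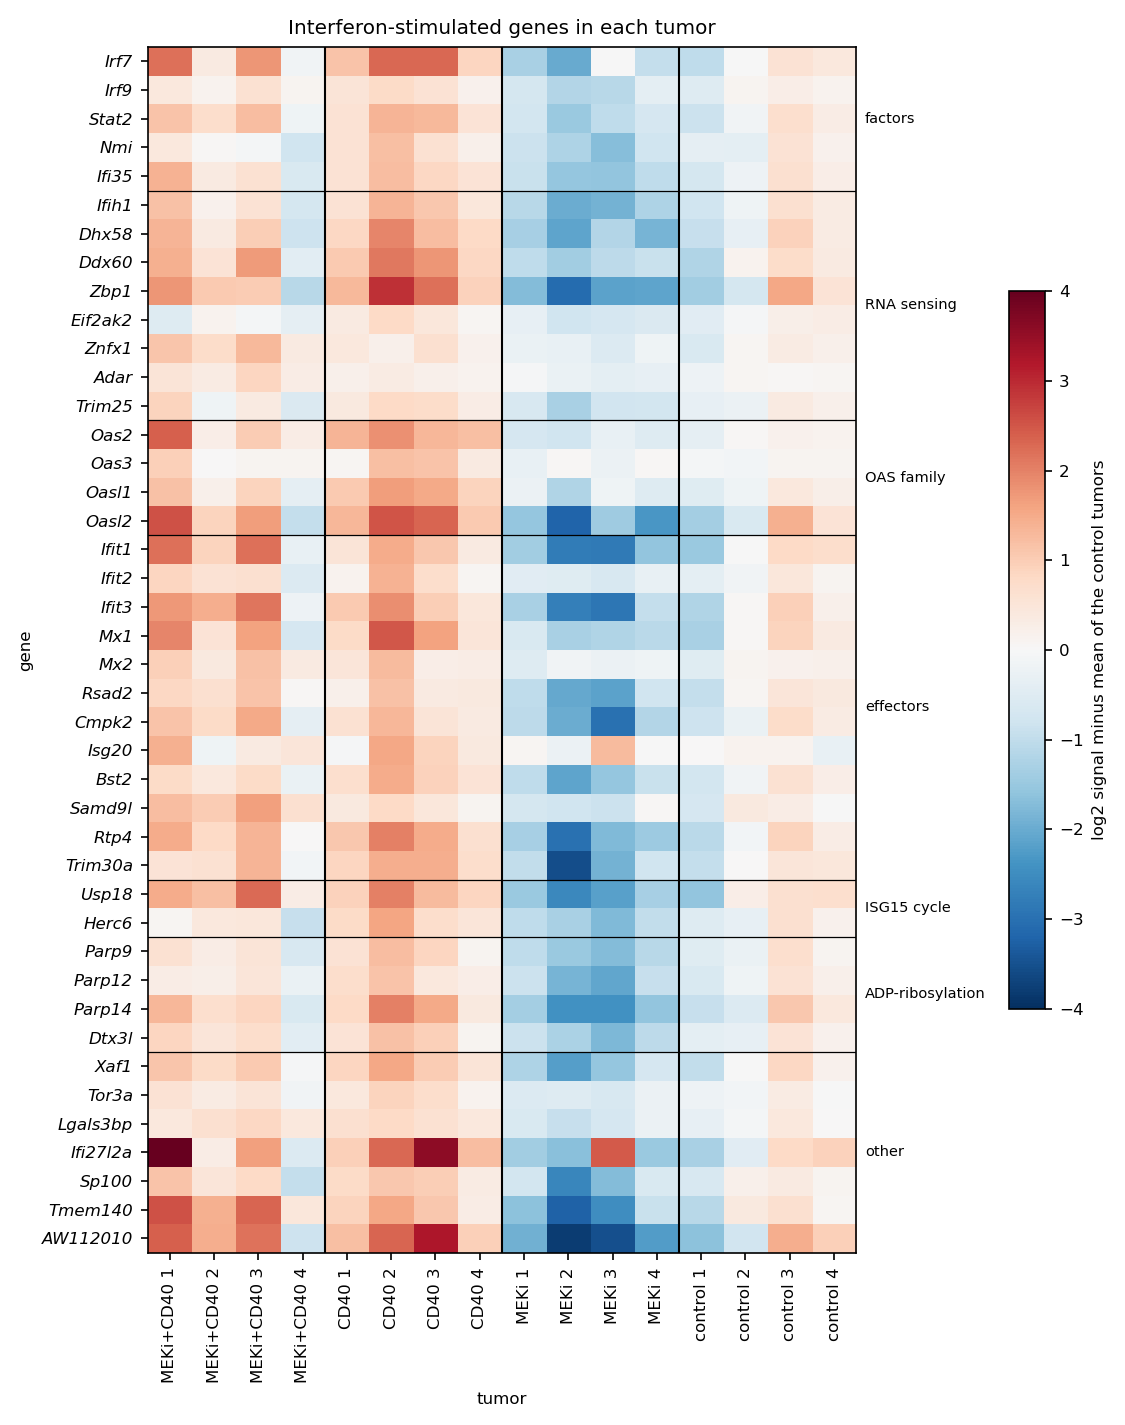
Log2 signal of the 42 genes in each tumor minus the mean of the 4 control tumors (colour, log2 units), with genes in rows grouped by role and tumors in columns. Red marks a signal above the control mean, as in most genes of CD40 tumor 2, and blue one below it, as in most genes of MEKi tumors 2 and 3.

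Within a group the genes shared their high and low tumors. Control tumor 1 was the lowest control for 39 of the 42 genes and control 3 the highest for 35. CD40 tumor 2 was the highest of its group for 38 and CD40 tumor 4 the lowest for 37. In the combination, tumor 4 was the lowest for 38 genes, and tumor 1 (26 genes) or tumor 3 (15 genes) was mostly the highest. MEKi tumor 2 was the lowest of its group for 25 genes and MEKi tumor 3 for 15. The median SD within a group over the 42 genes was 0.66 in MEKi+CD40, 0.46 in CD40, 0.44 in MEKi and 0.59 in control tumors. Ifi27l2a had the widest spread, with an SD of 2.15 in MEKi+CD40 and 1.99 in MEKi tumors.

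Leukocyte transcripts stood in a similar order of groups. The 8 pan-leukocyte genes, all measured and all above background, averaged 7.26 to 10.55 in MEKi+CD40 tumors, 9.12 to 11.36 in CD40 tumors, 5.79 to 8.06 in MEKi tumors and 7.37 to 9.47 in controls. The 10 macrophage genes averaged 6.59 to 10.19 in MEKi+CD40, 8.61 to 10.70 in CD40, 5.43 to 8.002 in MEKi and 6.81 to 8.88 in control tumors. Ptprc, which encodes the leukocyte antigen CD45, averaged 9.44 in MEKi+CD40, 10.57 in CD40, 6.82 in MEKi and 8.82 in control tumors. Within the MEKi group, tumor 2 had the lowest pan-leukocyte level, 5.79, and the lowest signal for 25 of the 42 interferon-stimulated genes. Tumor 3 had the highest level, 8.06, with the lowest signal for 15 of the 42 genes and the highest for 7. In control tumors and in MEKi+CD40 tumors, the mean of the 42 genes ranked the tumors in the same order as the pan-leukocyte level. In CD40 tumors, as in MEKi tumors, the 2 orders differed. T cell genes (8 of 10 measured) averaged 5.36 to 6.48 in MEKi+CD40, 5.83 to 7.38 in CD40, 5.08 to 5.29 in MEKi and 5.30 to 6.38 in control tumors. Of 4 measured NK cell markers (Ncr1, Klra8, Eomes and Klre1) 0 had a mean above background. The part of these cells in the differences below was not tested.

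**Figure D2:**
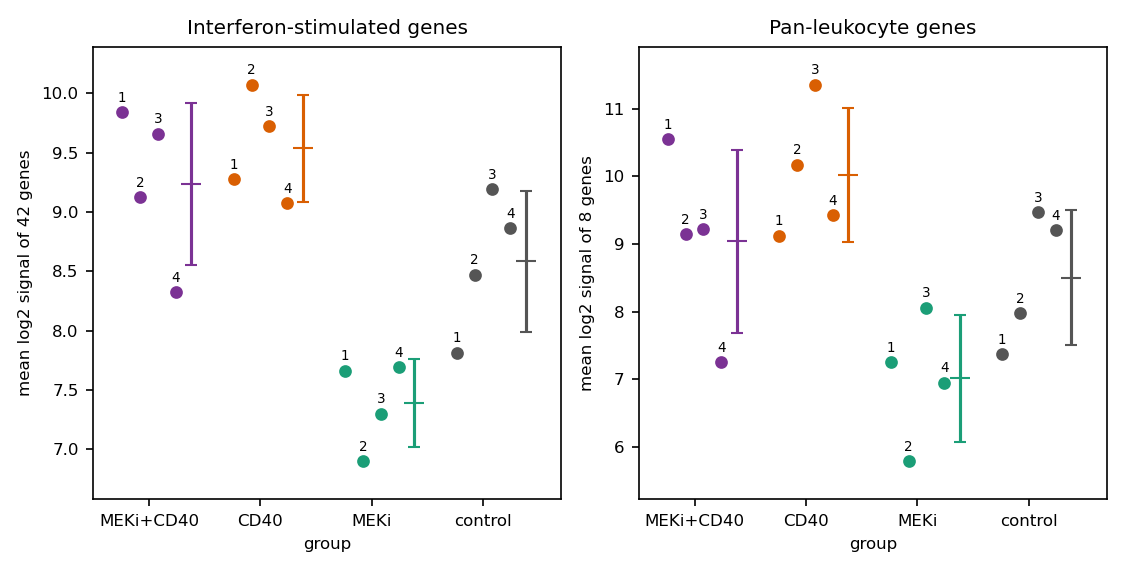
Mean log2 signal of the 42 interferon-stimulated genes (left) and of 8 pan-leukocyte genes (right) in each tumor, numbered by tumor, with the group mean and SD beside the points. Interferon-stimulated genes were lowest in the 4 MEKi tumors, at 6.90 to 7.69, and pan-leukocyte genes in MEKi tumor 2, at 5.79.

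Expression was compared between pairs of groups on 45037 probe sets with limma, and a gene was called where its Benjamini-Hochberg adjusted p lay under 0.05. Anti-CD40 without the inhibitor was set against the inhibitor without anti-CD40 first, since the 2 groups lay furthest apart, an order taken from these same values. The 2 groups differ in both the inhibitor and the antibody. From this comparison alone, here and below, a rise in CD40 against MEKi tumors therefore cannot be assigned to the antibody or to the inhibitor. The differences of each group from controls are given further below, where 0 of the 42 genes were called. In CD40 tumors 34 of the 42 genes rose relative to MEKi tumors, where 0.77% of all probe sets rose, and 0 fell, where 0.122% did. All 42 differences were positive, with a median of 2.11 on the log2 scale (4.31-fold) against -0.05 over all probe sets, and they ran to 4.81. In 40 genes every CD40 tumor lay above every MEKi tumor, against 4.89% of all genes, with Isg20 and Ifi27l2a the exceptions. The 8 genes without a call were Adar, Oas3, Ifit2, Mx2, Isg20, Samd9l, Trim30a and Ifi27l2a. Without CD40 tumor 2 the count of calls was 18 (0.211% of all probe sets rose), and without MEKi tumor 2 it was 21 (0.246%). With Ddx60 and Oas3, which were not above background in MEKi tumors, at their bounds, the median was 2.06. In the same comparison the 8 pan-leukocyte genes had a median difference of 2.92 with 4 called (Lcp1, Rac2, Cd52 and Itgb2), and the 10 macrophage genes one of 2.79 with 2 called (Cd68 and Fcgr1).

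MEKi+CD40 tumors were then set against MEKi tumors, a comparison of anti-CD40 with the control antibody in mice that all received the inhibitor. Here 16 of the 42 genes rose, against 0.526% of all probe sets, and 0 fell, against 0.624%. They were Irf9, Znfx1, Ifit1, Ifit3, Rsad2, Bst2, Samd9l, Rtp4, Usp18, Parp9, Parp14, Dtx3l, Xaf1, Lgals3bp, Tmem140 and AW112010. All 42 differences were positive, with a median of 1.75 (3.36-fold) and a range of 0.25 to 4.17, and in 33 genes the groups did not overlap, against 7.05% of all genes. The calls lay close to the threshold, with a smallest adjusted p of 0.0496 by limma, and Stat2, Adar and Parp12 fell just short at 0.0501. Dimmer probe sets of Stat2 and Tor3a passed, each at 0.0496. The count was 0 after cyclic loess normalization, without MEKi+CD40 tumors 1 and 3, which held muscle transcripts, and without MEKi tumor 1, 2 or 3 or MEKi+CD40 tumor 3 alone, and under each of these settings 0% of all probe sets passed. It was 28 without MEKi+CD40 tumor 4 (0.788% of all probe sets rose) and 2 without MEKi tumor 4 (0.129%). The median difference was 1.18 without MEKi+CD40 tumors 1 and 3, and with all tumors that of the pan-leukocyte genes was 2.01 and that of the macrophage genes 2.22.

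MEKi+CD40 tumors and CD40 tumors, which differ in the inhibitor alone, gave 0 calls among the 42 genes by limma, with 2 genes higher and 4 lower at an unadjusted p under 0.05, against 10.8% and 10.6% of all probe sets. Over all probe sets 2.28% rose and 2.46% fell in this comparison. The differences were negative for 32 genes and positive for 10, with a median of -0.41 and a range of -1.16 for Zbp1 to 0.74 for Tmem140. Herc6 was the single gene with every MEKi+CD40 tumor below every CD40 tumor, against 8.2% of all genes. The smallest adjusted p was 0.0918, for Eif2ak2, with a difference of -0.62 (SE 0.18). The direction depended on the probe set for Adar, whose brightest probe set differed by 0.27 while others differed by -0.73 (adjusted p = 0.0336) and -0.90 (adjusted p = 0.026). Of the 28 other probe sets of the 42 genes, 8 had the opposite sign to the brightest of their gene. The 2 of Adar alone had an unadjusted p under 0.05 among these 8. The pan-leukocyte genes had a median difference of -0.95.

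Against control tumors, 0 of the 42 genes were called in any of the 3 treated groups by limma. In CD40 tumors all 42 differences were positive, from 0.22 for Adar to 2.01 for Ifi27l2a, with a median of 0.86. At an unadjusted p under 0.05, 35 of the 42 were higher, against 3.33% of all probe sets, while 0% of probe sets passed after adjustment. The smallest adjusted p, 0.0954, was that of Oas2. The groups did not overlap in 10 genes, against 1.7% of all genes: Irf7, Ddx60, Adar, Oas2, Oasl1, Mx2, Trim30a, Usp18, Lgals3bp and Ifi27l2a. The pan-leukocyte genes had a median difference of 1.53 and the macrophage genes one of 1.32.

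In MEKi tumors 41 of the 42 differences from controls were negative, with Isg20 at 0.27 the exception, and the median was -1.26. AW112010 had the lowest difference, -2.87, followed by Zbp1 at -2.26 and Ifit1 at -2.15. At an unadjusted p under 0.05, 35 of the 42 were lower, against 3.32% of all probe sets, and again 0% passed after adjustment, with a smallest adjusted p of 0.57 among the 42. In 17 genes every MEKi tumor lay below every control, against 2.11% of all genes. The pan-leukocyte genes had a median difference of -1.40.

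In MEKi+CD40 tumors 40 of the 42 differences from controls were positive, with a median of 0.59 and a highest value of 1.69 for Tmem140, while Nmi and Eif2ak2 stood at -0.10 and -0.20. At an unadjusted p under 0.05, 6 were higher, against 8.6% of all probe sets, and 0.00888% of probe sets passed after adjustment in either direction. Samd9l had the smallest adjusted p, 0.0616, with a difference of 1.14 (SE 0.27). The groups did not overlap for Znfx1, Adar, Oas2, Mx2 and Samd9l, 5 of the 42 genes, against 6.93% of all genes, although the other probe sets of Adar had negative differences. Of the 28 other probe sets of the 42 genes, 9 had the opposite sign to the brightest of their gene, 0 of them at an unadjusted p under 0.05. Over the 8 pan-leukocyte genes the median difference was 0.605, with all 8 positive, and over the macrophage genes 0.54. Without MEKi+CD40 tumors 1 and 3 the median of the 42 genes was 0.08. The interaction, the MEKi+CD40 minus MEKi difference less the CD40 minus control difference, was called in 0 of the 42 genes by limma (0% of probe sets), with 14 higher at an unadjusted p under 0.05 against 6.82% of all probe sets. Its median was 0.86 and its highest value 2.81, for Tmem140 (adjusted p = 0.112), whose dimmer probe set had an interaction of 0.40. Of the 28 other probe sets, 8 had an interaction of the opposite sign to the brightest of their gene. These comparisons share groups with each other, so their values are not independent.

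**Figure D3:**
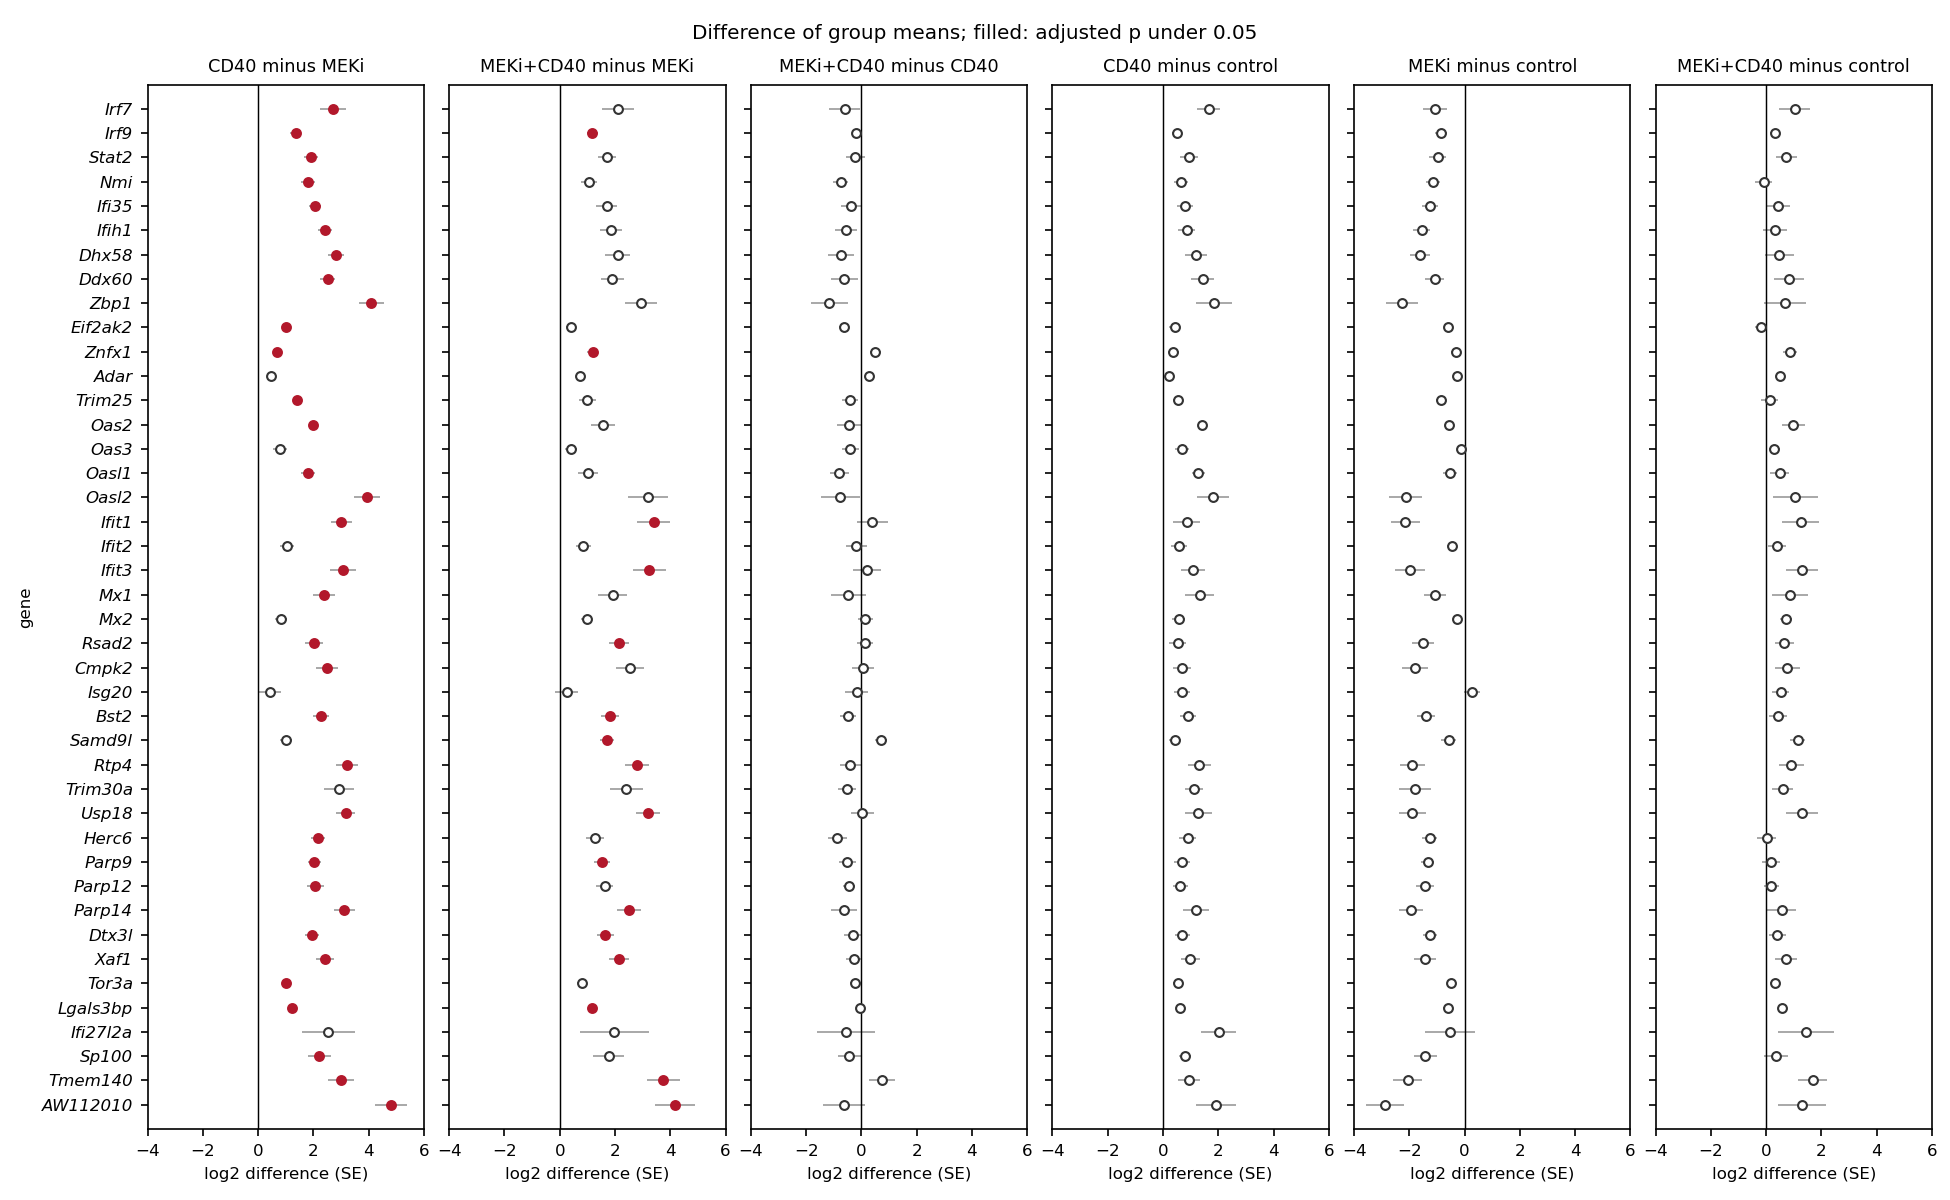
Difference between 2 groups for each of the 42 genes (log2 units, point and SE) in 6 panels, 1 for each pair of groups, with filled points where the adjusted p lay under 0.05. Filled points are 34 in the panel of CD40 minus MEKi, 16 in that of MEKi+CD40 minus MEKi and 0 in the other 4 panels.

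Among the factors, Irf7, which amplifies interferon production, had log2 signals of 9.42, 7.57, 8.97 and 7.07 in MEKi+CD40 tumors, 8.36, 9.52, 9.51 and 8.08 in CD40 tumors, 5.93, 5.20, 7.20 and 6.28 in MEKi tumors and 6.22, 7.20, 7.81 and 7.65 in control tumors. Every CD40 tumor had more Irf7 than any control or MEKi tumor, while MEKi+CD40 tumors overlapped with both. It rose in CD40 against MEKi tumors by 2.72 (SE 0.46, adjusted p = 0.0372), with 2.11 (SE 0.59, adjusted p = 0.0922) in MEKi+CD40 against MEKi tumors. Irf9, the main DNA-binding subunit of the complex, had 8.47, 8.20, 8.65 and 8.16 in MEKi+CD40 tumors, 8.56, 8.81, 8.62 and 8.21 in CD40 tumors, 7.33, 6.87, 6.92 and 7.65 in MEKi tumors and 7.52, 8.14, 8.32 and 8.20 in control tumors. MEKi tumor 4 exceeded control tumor 1, and the other MEKi tumors lay below every control. It rose by 1.36 (SE 0.19, adjusted p = 0.02) in CD40 against MEKi tumors and by 1.18 (SE 0.19, adjusted p = 0.0496) in MEKi+CD40 against MEKi tumors. Stat2, its partner, had 7.65, 7.19, 7.72 and 6.33 in MEKi+CD40 tumors, 7.08, 7.85, 7.79 and 7.03 in CD40 tumors, 5.75, 5.02, 5.48 and 5.83 in MEKi tumors and 5.65, 6.36, 7.18 and 6.79 in control tumors. All MEKi tumors had less Stat2 than any CD40 or MEKi+CD40 tumor, and MEKi tumors 1 and 4 lay above control tumor 1. The difference of CD40 from MEKi tumors was 1.92 (SE 0.24, adjusted p = 0.0132). All 5 genes of this role rose in CD40 against MEKi tumors, Nmi and Ifi35 included, where 0.77% of all probe sets rose. Irf9 alone rose in MEKi+CD40 against MEKi tumors, where 0.526% did. A dimmer probe set of Stat2 also rose there by limma, by 1.44 (adjusted p = 0.0496).

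Of the 8 genes that sense, unwind or edit RNA or act in RNA sensing, 7 rose in CD40 against MEKi tumors, where 0.77% of all probe sets rose. Znfx1 alone rose in MEKi+CD40 against MEKi tumors, where 0.526% did. Ifih1 (MDA5), a cytoplasmic sensor of long double-stranded RNA, had 10.41, 9.41, 9.79 and 8.51 in MEKi+CD40 tumors, 9.81, 10.58, 10.29 and 9.68 in CD40 tumors, 8.11, 7.25, 7.33 and 7.99 in MEKi tumors and 8.43, 9.06, 9.86 and 9.55 in control tumors. All MEKi tumors lay below all tumors of the other 3 groups. It rose by 2.42 (SE 0.26, adjusted p = 0.00845) in CD40 against MEKi tumors. Zbp1, a sensor of Z-form nucleic acid that can start cell death, had 9.90, 9.18, 9.17 and 7.03 in MEKi+CD40 tumors, 9.43, 11.07, 10.35 and 9.05 in CD40 tumors, 6.42, 5.06, 6.01 and 6.04 in MEKi tumors and 6.74, 7.43, 9.70 and 8.70 in control tumors. Every MEKi tumor again lay below the rest, and control tumors spanned a wide range. Its rise in CD40 against MEKi tumors was 4.09 (SE 0.45, 17.1-fold, adjusted p = 0.0091), and the helicase Dhx58 rose by 2.82. Ddx60, another helicase, was not above background in any MEKi tumor, and rose at least 4.18-fold in CD40 against MEKi tumors (adjusted p = 0.00845). For such a bound the dim tumors were set to the background level. Adar, which edits adenosine to inosine in double-stranded RNA, had 9.42, 9.22, 9.76 and 9.19 in MEKi+CD40 tumors, 9.10, 9.24, 9.11 and 9.06 in CD40 tumors, 8.86, 8.64, 8.52 and 8.58 in MEKi tumors and 8.69, 8.99, 8.96 and 8.99 in control tumors. By this probe set every CD40 and MEKi+CD40 tumor lay above every control, with 0 calls in any comparison. The 2 other Adar probe sets rose in CD40 against MEKi tumors, by 1.07 (adjusted p = 0.0273) and 1.09 (adjusted p = 0.0108), and differed by -0.29 and -0.22 in MEKi+CD40 against control tumors.

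The OAS genes, 4 in number, respond to double-stranded RNA, and Oas2 and Oas3 make the messenger that activates RNase L. Oas2 had 9.83, 7.71, 8.48 and 7.75 in MEKi+CD40 tumors, 8.80, 9.29, 8.79 and 8.65 in CD40 tumors, 6.78, 6.65, 7.15 and 6.94 in MEKi tumors and 7.10, 7.51, 7.63 and 7.58 in control tumors. CD40 tumors lay above all controls and MEKi tumors, and MEKi+CD40 tumors above all controls. Of the 42 genes it had the smallest adjusted p in CD40 against MEKi tumors, 0.00629, with a difference of 2.003 (SE 0.16). Oasl1, which in mouse represses translation of Irf7, had 7.22, 6.26, 6.96 and 5.71 in MEKi+CD40 tumors, 7.10, 7.72, 7.58 and 6.93 in CD40 tumors, 5.82, 4.85, 5.89 and 5.53 in MEKi tumors and 5.56, 5.88, 6.49 and 6.29 in control tumors. MEKi+CD40 tumor 4 fell among the MEKi tumors, and all CD40 tumors exceeded the controls. Oasl1 rose by 1.81 (SE 0.25, adjusted p = 0.02) and Oasl2 by 3.94 (SE 0.45, adjusted p = 0.0107) in CD40 against MEKi tumors. Oas3 was at or below background in every MEKi and every control tumor and was not called.

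Effectors that act on viral RNA, proteins or membranes were the most numerous role. Of the 12, 7 rose in CD40 against MEKi tumors, where 0.77% of all probe sets rose. In MEKi+CD40 against MEKi tumors 6 rose, where 0.526% did, and these are among the calls close to the threshold described above. Ifit1, which binds the 5′ end of viral RNA and whose promoter holds the core shown above, had 10.89, 9.57, 10.88 and 8.40 in MEKi+CD40 tumors, 9.20, 10.17, 9.76 and 9.03 in CD40 tumors, 7.29, 5.90, 5.85 and 7.09 in MEKi tumors and 7.20, 8.67, 9.47 and 9.39 in control tumors. MEKi+CD40 tumors 1 and 3 were the highest of all, and MEKi tumor 1 exceeded control tumor 1. Ifit1 rose by 3.40 (SE 0.60, 10.6-fold, adjusted p = 0.0496) in MEKi+CD40 against MEKi tumors and by 3.01 (SE 0.38, adjusted p = 0.0134) in CD40 against MEKi tumors. Mx1, a dynamin-like GTPase whose protein is not functional in C57BL/6 mice, had 8.16, 6.78, 7.84 and 5.55 in MEKi+CD40 tumors, 7.00, 8.70, 7.82 and 6.71 in CD40 tumors, 5.61, 4.92, 5.01 and 5.13 in MEKi tumors and 4.93, 6.28, 7.11 and 6.57 in control tumors. MEKi+CD40 tumor 4 lay below MEKi tumor 1, and Mx1 rose in CD40 against MEKi tumors by 2.39 (SE 0.39, adjusted p = 0.0314). Rsad2 (viperin), which makes a chain-terminating nucleotide, had 12.25, 12.05, 12.56 and 11.47 in MEKi+CD40 tumors, 11.63, 12.59, 11.78 and 11.81 in CD40 tumors, 10.42, 9.39, 9.27 and 10.63 in MEKi tumors and 10.48, 11.49, 11.91 and 11.82 in control tumors. No MEKi tumor reached the level of a CD40 or MEKi+CD40 tumor, and Rsad2 rose in both comparisons with MEKi tumors, by 2.16 (SE 0.36, adjusted p = 0.0496) in MEKi+CD40 and 2.03 (SE 0.34, adjusted p = 0.0357) in CD40 tumors. Bst2 (tetherin), which holds budding virus at the cell surface, had 11.52, 11.15, 11.50 and 10.48 in MEKi+CD40 tumors, 11.41, 12.22, 11.67 and 11.28 in CD40 tumors, 9.74, 8.64, 9.18 and 9.86 in MEKi tumors and 10.00, 10.59, 11.36 and 11.02 in control tumors. Every MEKi tumor lay below every tumor of the other groups, and Bst2 rose by 1.81 (SE 0.32, adjusted p = 0.0496) in MEKi+CD40 and 2.29 (SE 0.29, adjusted p = 0.0134) in CD40 against MEKi tumors. Isg20 differed least, by 0.25 and 0.42, and its groups overlapped in each comparison.

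Usp18, the protease that removes ISG15 from proteins and dampens the receptor, had 10.02, 9.74, 10.79 and 8.82 in MEKi+CD40 tumors, 9.47, 10.55, 9.80 and 9.41 in CD40 tumors, 7.06, 5.95, 6.37 and 7.20 in MEKi tumors and 6.95, 8.79, 9.19 and 9.22 in control tumors. CD40 tumors exceeded all controls, and MEKi tumors 1 and 4 exceeded control tumor 1. Usp18 rose by 3.20 (SE 0.43, adjusted p = 0.0496) in MEKi+CD40 and 3.16 (SE 0.33, adjusted p = 0.00817) in CD40 against MEKi tumors. Herc6, the mouse ligase that attaches ISG15, rose by 2.15 in CD40 against MEKi tumors. Parp14, a mono-ADP-ribosyltransferase, had 9.95, 9.28, 9.48 and 8.02 in MEKi+CD40 tumors, 9.43, 10.63, 10.15 and 9.02 in CD40 tumors, 7.26, 6.20, 6.21 and 7.06 in MEKi tumors and 7.70, 8.07, 9.69 and 9.03 in control tumors. All MEKi tumors lay below all others. Parp14 rose by 2.50 (SE 0.43, adjusted p = 0.0496) in MEKi+CD40 and 3.13 (SE 0.38, adjusted p = 0.0115) in CD40 against MEKi tumors. The 4 genes of ADP-ribosylation, with Parp9 and its partner Dtx3l, all rose in CD40 against MEKi tumors, where 0.77% of all probe sets rose.

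The remaining 7 genes include AW112010 and Tmem140. AW112010, a transcript induced in mouse immune cells, had 11.63, 10.70, 11.43 and 8.42 in MEKi+CD40 tumors, 10.46, 11.59, 12.48 and 10.19 in CD40 tumors, 7.33, 5.44, 5.73 and 7.00 in MEKi tumors and 7.62, 8.47, 10.71 and 10.19 in control tumors. Every MEKi tumor lay below every other tumor, and the gene rose by 4.17 (SE 0.74, adjusted p = 0.0496) in MEKi+CD40 and 4.81 (SE 0.58, 28.0-fold, adjusted p = 0.0115) in CD40 against MEKi tumors. Tmem140, a membrane protein with the core in its promoter, had 11.83, 10.71, 11.62 and 9.73 in MEKi+CD40 tumors, 10.18, 10.83, 10.35 and 9.57 in CD40 tumors, 7.64, 6.06, 6.80 and 8.38 in MEKi tumors and 8.16, 9.69, 9.94 and 9.35 in control tumors. MEKi+CD40 and CD40 tumors overlapped, and both lay above every MEKi tumor. It rose by 3.75 (SE 0.59, 13.5-fold, adjusted p = 0.0496) in MEKi+CD40 and 3.01 (SE 0.47, adjusted p = 0.0266) in CD40 against MEKi tumors. A dimmer probe set of Tmem140, with a mean of 5.07, differed less by limma. Its differences were 0.775 (adjusted p = 0.0951) in MEKi+CD40 and 0.57 (adjusted p = 0.0452) in CD40 against MEKi tumors. Ifi27l2a had 11.18, 7.09, 8.46 and 6.27 in MEKi+CD40 tumors, 7.76, 9.10, 10.37 and 8.03 in CD40 tumors, 5.40, 5.12, 9.25 and 5.31 in MEKi tumors and 5.52, 6.36, 7.60 and 7.74 in control tumors. MEKi tumor 3 stood far above the other MEKi tumors, and the gene was not called in any comparison. Genes with the core in the promoter had a median difference of CD40 from MEKi tumors of 2.42 (11 genes), against 1.88 for the 20 measured genes with a window and no core, given as a description.

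**Figure D4:**
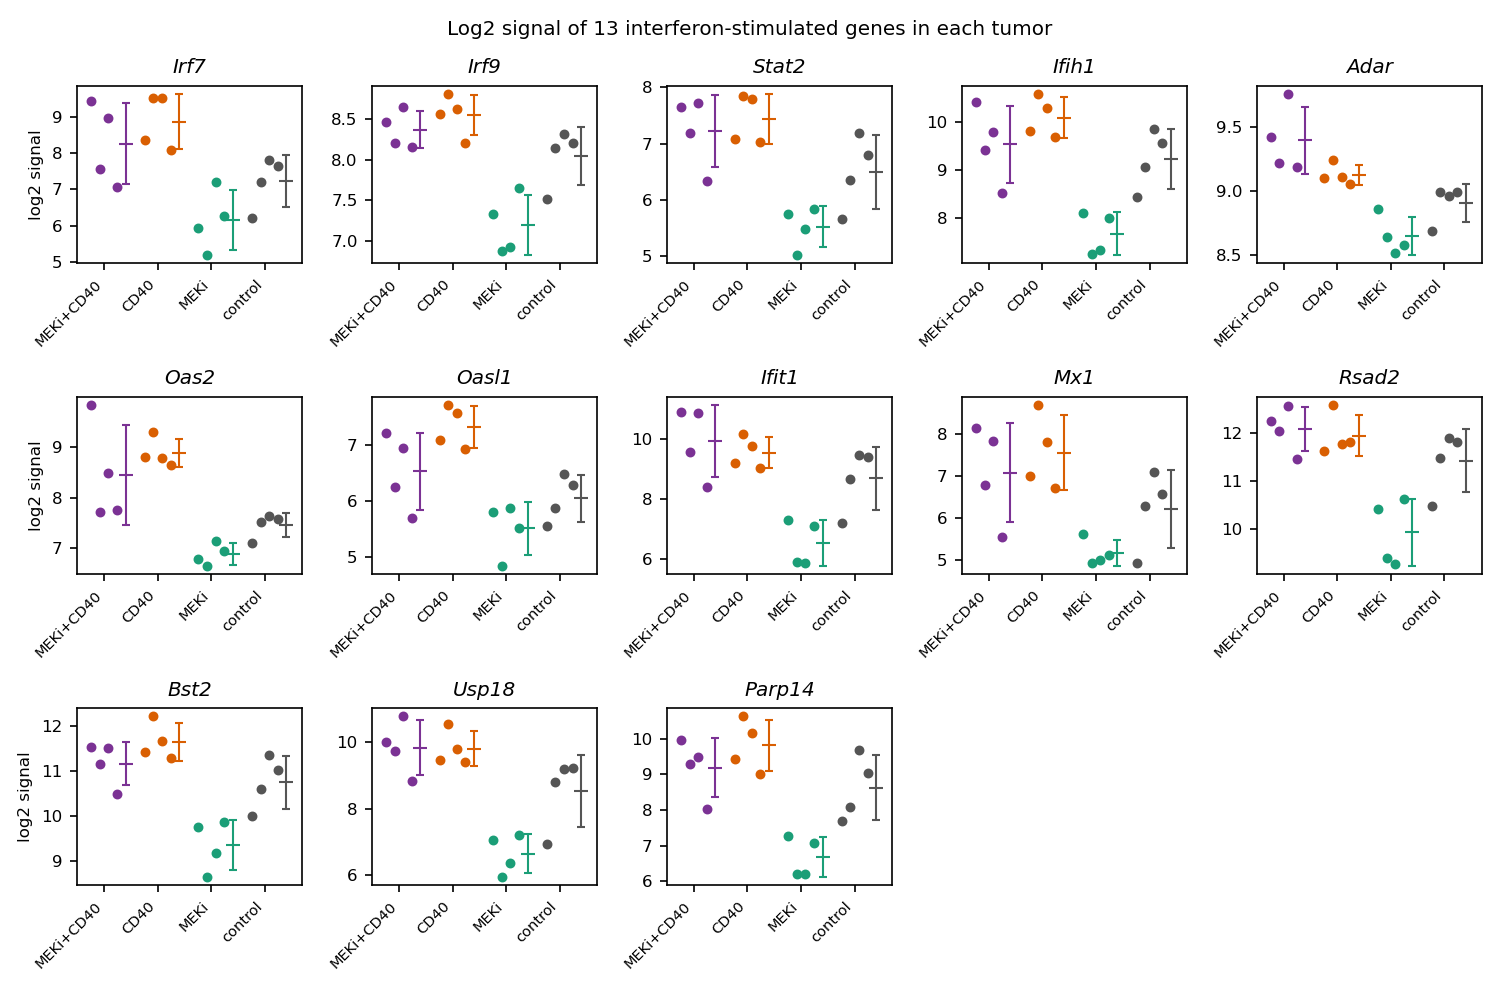
Log2 signal of 13 genes in each tumor (points), with the group mean and SD, for MEKi+CD40, CD40, MEKi and control tumors. MEKi tumors are lowest in most panels, as for Ifih1 at 7.25 to 8.11 against 8.43 to 9.86 in controls, while the Adar groups span 8.52 to 9.76 in all.

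The interferons themselves were mostly below the background level. Of 15 type I interferon genes 8 were measured, their mean was 4.26 to 4.34 in the 4 groups, and 0 were called in any comparison by limma. Ifna1 and Ifna9 alone had a mean above the background level, 5.37 and 5.51. Ifna1 was 4.98 to 5.30 in CD40 tumors and 5.38 to 5.64 in MEKi tumors, which did not overlap, with a CD40 minus MEKi difference of -0.35 (SE 0.10, adjusted p = 0.184). Ifnb1 averaged 4.63 ± 0.21 in MEKi+CD40, 4.39 ± 0.15 in CD40, 4.59 ± 0.18 in MEKi and 4.66 ± 0.31 in control tumors (SD, n = 4 each), with every group mean below the background level of 4.94, so that a difference in Ifnb1 was not detectable here. Among 9 measured genes of the receptor and its signalling 0 were called in any comparison. The receptor subunit Ifnar2 differed by 0.67 (SE 0.13, adjusted p = 0.0501) in MEKi+CD40 and 0.58 (adjusted p = 0.0912) in CD40 against MEKi tumors, and the feedback inhibitor Socs1 by 1.38 (SE 0.33, adjusted p = 0.112) in CD40 against MEKi tumors.

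Among genes that induce interferon, 16 of 20 names were measured, and 3 rose in CD40 against MEKi tumors, where 0.77% of all probe sets rose. They were the RNA sensor Ddx58 (RIG-I) by 1.37 (SE 0.15, adjusted p = 0.0091), the factor Irf8 by 3.10 (SE 0.42, adjusted p = 0.0171) and the endosomal sensor Tlr3 by 0.80 (SE 0.14, adjusted p = 0.0393). Ddx58 and Tlr3 also rose in MEKi+CD40 against MEKi tumors, where 0.526% of all probe sets rose. Their differences were 1.48 (SE 0.19) and 0.76 (SE 0.14), each with an adjusted p of 0.0496. Sting1, an adaptor of DNA sensing, fell by 0.53 (SE 0.12, adjusted p = 0.0444) in MEKi+CD40 against CD40 tumors, where 2.46% of all probe sets fell. Without CD40 tumor 2, or without CD40 tumor 4, 0% of all probe sets fell in this comparison. Of the 12 genes of the interferon gamma axis, 6 rose in CD40 against MEKi tumors, where 0.77% of all probe sets rose. Among them were the factor Irf1, by 3.14, and Ifng itself, at least 3.47-fold (adjusted p = 0.0472). The value for Ifng is a bound because it was not above background in any MEKi tumor. Ubd, a ubiquitin-like protein, was the single one to rise in MEKi+CD40 against MEKi tumors, with 7.25 to 10.76 in MEKi+CD40 tumors and 4.48 to 5.06 in MEKi tumors, of which MEKi tumor 1 alone lay above background. The part of interferon gamma in the values of the 42 genes was not tested.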

How the data were processed

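RNA of 16 whole tumors was hybridised to Affymetrix mouse genome arrays, 200 ng each. The authors normalised the arrays by RMA in Chipster (version: not given in the sources used here) and deposited log2 signals for 45101 probe sets. RMA sets all arrays to one distribution, so a shift shared by most genes would not be seen. Of the value columns 0 could not be matched to a sample. After 64 control probe sets were left out, 45037 were tested. Of these 34945 carried 1 gene symbol, 932 several and 9160 none. The background level is the 95th percentile of 44 olfactory receptor probe sets. Array medians were 5.66 to 5.75, and no read depth exists for arrays. For a comparison of 2 groups their 8 arrays were fitted with limma 3.58.1 (lmFit and eBayes) in R 4.3.3, two-sided, with Benjamini-Hochberg adjustment over all probe sets, and the interaction on all 16 arrays. Levels and counts were computed in Python 3.11.15 (numpy 2.4.6, pandas 2.3.3) and drawn with matplotlib 3.10.9. On simulated data with known changes, 70.15% to 88.06% of changes of 1 on the log2 scale were called, and 7.463% to 34.33% of changes of 0.5, depending on the comparison. The changed probe sets were drawn at random from all probe sets and varied independently of each other. The 42 genes shared their high and low tumors, so these shares do not give the rate of calls to be had among them.

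The members and lists were chosen with earlier results of these data known. All 42 genes may be named, 13 measured genes fixed by name have values in every tumor, and the largest and smallest differences in a comparison were added. Zbp1, AW112010, Tmem140 and Ifi27l2a are named with tumor values by that addition. Of other lists up to 3 genes with the smallest p in a comparison and a few fixed by name are given. Dhx58, Ddx60, Oasl2, Herc6, Samd9l and Eif2ak2 are given with differences after their values were seen. Alternatives were all 16 arrays in 1 fit, a replicate block, a filter on dim probe sets, cyclic loess, a trended robust fit, the mean of a gene's probe sets, and leaving out tumors.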

Additional observations from a re-analysis of the deposited data

Results flagged for a closer look

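Of 56 sets of 4 tumors tested for a distant tumor, 1 stood apart, where chance gives about 1 in 20. Adar in control tumor 1 had a log2 signal of 8.69, while the other controls lay at 8.96 to 8.99, a gap of 0.9 of the whole range. Control tumor 1 was also the lowest control for 39 of the 42 genes.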

How the results depend on the processing

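Counts of called genes depended on the setting more than the direction did. For CD40 against MEKi tumors (34 genes), the replicate block gave 18 (0.602% of all probe sets rose, against 0.77%), and leaving out 1 tumor gave 18 (without CD40 tumor 2) to 30 (without CD40 tumor 4). For MEKi+CD40 against MEKi tumors (16 genes), the count was 36 with all 16 arrays in 1 fit (3.78% of all probe sets rose, against 0.526%) and 28 with the filter on dim probe sets (2.35%). It was 0 with the replicate block, with cyclic loess and without MEKi+CD40 tumors 1 and 3, where 0% of all probe sets passed, and leaving out these tumors gave a median of 1.175. Leaving out 1 tumor gave 0 to 28. For MEKi+CD40 against CD40 tumors (0 genes), 1 gene was lower with all arrays (Eif2ak2, where 6.27% of all probe sets fell), with the mean of all probe sets (Adar, 3.46% of all genes) and without the 3 muscle-bearing tumors (Oas2, 1.89%), and leaving out 1 tumor gave 0 to 1, with Oas2 called without MEKi+CD40 tumor 1. For MEKi+CD40 against control tumors, all arrays gave 4 higher, where 3.59% of all probe sets rose, and the dim filter 1 (Samd9l), where 2.35% rose. For CD40 against control tumors, the trended robust fit gave 1 (Oas2), where 0.00666% of all probe sets rose. The cause was not tested. Same-numbered tumors correlated at -0.5168 to 0.4731 in their deviations, which cannot show whether they share more than a number. The replicate block pairs nothing that the labels state. The median of MEKi+CD40 against CD40 tumors was -0.08 without MEKi+CD40 tumor 4. Over all alternatives the sign of a gene's difference changed in 0 of 630 values for CD40 against MEKi and 0 of 630 for CD40 against control tumors, in 2 of 630 for MEKi+CD40 against MEKi, 1 of 588 for MEKi against control, 24 of 630 for MEKi+CD40 against control, 32 of 630 for MEKi+CD40 against CD40 tumors and 23 of 924 for the interaction.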
